A study of Danio rerio with 6 samples.

Results

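The 7 genes described here specify the mesendoderm of the zebrafish embryo, and they were followed by identifier in RNA-seq counts from embryos with and without knockdown of mondoa. They are genes with known roles in this step, taken as a list of identifiers: tbxta (ENSDARG00000101576), tbx16 (ENSDARG00000007329), eomesa (ENSDARG00000006640), ndr1 (ENSDARG00000057096), gata5 (ENSDARG00000017821), noto (ENSDARG00000021201) and sox32 (ENSDARG00000100591). The count table held 32054 genes, of which 15511 had enough counts to be tested, and all 7 were among these. The mondoa-mo group consisted of 3 libraries from embryos injected with a morpholino that blocks translation of mondoa, the gene of a glucose-sensing transcription factor. The mondoa-mis group consisted of 3 libraries from embryos injected with a mismatch version of that morpholino. Both groups were whole embryos without a mutation or transgene named in the labels, taken at 4 hpf (hours post fertilization) and pooled before RNA extraction. The authors call the libraries of a group biological replicates. The sources used here do not say whether replicates came from separate clutches. The p-values therefore measure the spread between these libraries, which may be partly technical.

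Mesendoderm, the common precursor of mesoderm and endoderm, forms at the margin of the blastoderm, next to the yolk. Nodal ligands secreted there signal through activin receptors, a co-receptor and Smad proteins, and switch on transcription factors in marginal cells. T-box factors and Noto then direct mesodermal fates, while Gata5 and Sox32 direct endodermal fates, and FGF and Wnt signals from the margin maintain the mesoderm.

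In mondoa-mo embryos, the Nodal ligand gene ndr1, the T-box genes tbxta, tbx16 and eomesa and the notochord gene noto were higher than in mondoa-mis embryos, gata5 was lower, and sox32 was not past the threshold. The rises were between 1.10-fold for eomesa and 2.24-fold for noto, and gata5 was 3.92-fold lower. Thus 5 of the 7 genes were called higher, where 16.9% of all tested genes were, and 1 of 7 was called lower, where 15.4% of all tested genes were. The lower gene, gata5, had enough counts to be tested only through mondoa-mis. In either direction 6 of 7 were called, beside 32.3% of all tested genes, at an adjusted p-value under 0.05 in the quasi-likelihood test of edgeR, with p-values adjusted over all genes tested by the Benjamini-Hochberg procedure. Fold changes below are given with their standard error, SE, and this adjusted p. The median log2 fold change of the 7 genes was 0.61, beside 0.0027 over all genes tested. The genes were chosen with earlier results of these data known, so these shares and medians describe the list and do not test it. With 1 mondoa-mo library left out 5 of the 7 genes passed, and with 1 mondoa-mis library left out 2 or 3 passed. With DESeq2's Wald test 4 passed, where 4410 genes were called. A log2 fold change was given there for 24450 genes. DESeq2 can leave low-count genes without an adjusted p, so no share is formed. The 32.3% above is the share of the edgeR fit to all libraries and need not hold in these fits. Totals with 1 library left out are given in the closing section. In RNA from whole embryos, a change in the number of cells of a type and a change in RNA per cell cannot be told apart. According to the authors, the embryos were matched by age, with the controls at sphere stage. A difference in developmental stage between the groups was not tested here. At later stages the authors stained morphants for no tail (tbxta), gsc and sox32, among other markers. With matched stages they reported no tail slightly broadened and the other markers unchanged. With matched age they reported gsc slightly expanded. Such stainings show patterns, and their bearing on the levels at 4 hpf was not tested.

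**Figure D1:**
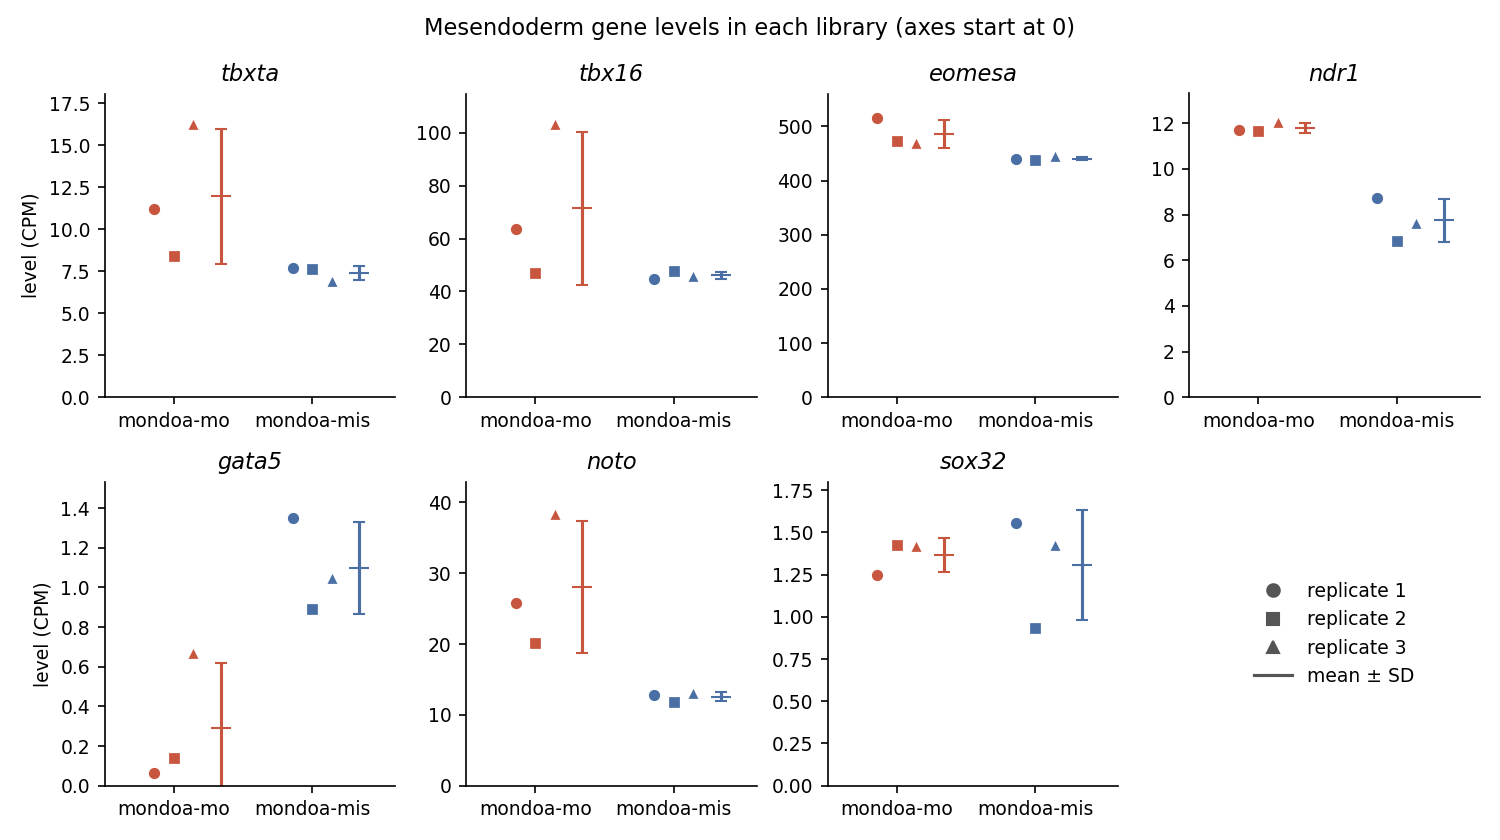
Level of each mesendoderm gene in each library, in CPM (counts scaled to 1000000 per library after TMM normalization) on a linear axis that starts at 0, with mondoa-mo in red and mondoa-mis in blue. Symbols mark replicates, and the bar beside them is the mean ± SD of 3 libraries (the lower arm for gata5 in mondoa-mo ends at the axis). For tbxta, eomesa, ndr1 and noto every mondoa-mo library lies above every mondoa-mis library, for gata5 every one lies below, and for tbx16 and sox32 the groups overlap.

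Total counts per library were between 20685326 and 32100726. The groups differed in their spread: the median coefficient of variation (SD over mean of the CPM) of all tested genes was 9.88% in mondoa-mo and 4.71% in mondoa-mis. The coefficient of variation beyond counting error was 0.111 in mondoa-mo and 0.0189 in mondoa-mis, so the mondoa-mis libraries differed by little more than counting error. edgeR fitted the spread of each gene over both groups together. How far this bears on calls lost without a mondoa-mis library was not tested. With no library left out, voom with group weights, which lets the groups differ in spread, called 6 of the 7 genes, beside 5306 of 15511 genes. The transcript of mondoa itself, named MLXIP in the reference table, was at 298, 327 and 349 CPM in mondoa-mo and at 278, 273 and 267 CPM in mondoa-mis, a log2 fold change of 0.25 (SE 0.058, adjusted p of 0.0074 in edgeR). A morpholino that blocks translation need not lower its transcript, so this is no check of the knockdown.

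The ligand gene ndr1 encodes the Nodal protein Squint, which induces mesendoderm at a distance from its source. It was at 11.7, 11.7 and 12.1 CPM in mondoa-mo, against 8.75, 6.85 and 7.65 CPM in mondoa-mis. The groups did not overlap, as was the case for 5 of the 7 genes and for 47.8% of all tested genes, and the mondoa-mo libraries lay closer together than the mondoa-mis libraries. The means were 11.8 ± 0.218 CPM in mondoa-mo and 7.75 ± 0.953 CPM in mondoa-mis (SD, n = 3 libraries each). edgeR gave a log2 fold change of 0.61 (SE 0.110) with an adjusted p of 0.0022, and ndr1 stayed past the threshold in all 13 alternative analyses, with values between 0.52 and 0.70. The coefficient of variation in mondoa-mo was larger than that of ndr1 for 96.7% of the tested genes. With 366, 253 and 289 counts in mondoa-mo, counting error alone would spread these libraries more, so their closeness is not read as a trait of ndr1.

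The T-box genes eomesa, tbx16 and tbxta were all called higher, and differences between their fold changes were not tested. Eomesa is a T-box factor whose mRNA is also supplied maternally and which acts with Nodal signaling in endoderm formation. Its level was 515, 474 and 469 CPM in mondoa-mo, against 439, 438 and 445 CPM in mondoa-mis. The mean was 486 ± 25.5 CPM in mondoa-mo and 441 ± 3.45 CPM in mondoa-mis (SD, n = 3 libraries each), and the groups did not overlap although the difference was small. edgeR gave a log2 fold change of 0.14 (SE 0.046) with an adjusted p of 0.039. This value was below the medians of the housekeeping genes (0.17) and the maternal mRNAs (0.25) described below. The gene missed the threshold in 6 of 13 alternatives. Among them were scaling by library size alone (0.099, adjusted p = 0.098) and leaving out mondoa-mo replicate 1 (0.098, adjusted p = 0.066). It also missed it without mondoa-mis replicate 1 (adjusted p = 0.13), replicate 2 (0.15) or replicate 3 (0.11).

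The T-box gene tbx16, known from the spadetail mutant, is needed for trunk paraxial mesoderm. Its CPM was 63.8, 47.2 and 103 in mondoa-mo and 44.8, 47.6 and 45.9 in mondoa-mis. The groups overlapped, because mondoa-mo replicate 2 lay within the mondoa-mis range while replicate 3 was 2.19-fold above replicate 2. The mean was 71.4 ± 28.9 CPM in mondoa-mo and 46.1 ± 1.39 CPM in mondoa-mis (SD, n = 3 libraries each), and 5.04% of the tested genes had a larger coefficient of variation in mondoa-mo. The log2 fold change of 0.63 (SE 0.217) had an adjusted p of 0.048 in edgeR, just past the threshold. Without mondoa-mo replicate 3 it was 0.28 (adjusted p = 0.070), and DESeq2's Wald test gave 0.63 with an adjusted p of 0.15. The call was lost, too, without mondoa-mis replicate 1 (adjusted p = 0.13), replicate 2 (0.11) or replicate 3 (0.12).

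The Brachyury gene tbxta, known from the no tail mutant, is expressed in the marginal mesoderm and later in the notochord. It was at 11.2, 8.38 and 16.3 CPM in mondoa-mo, against 7.69, 7.62 and 6.94 CPM in mondoa-mis. All mondoa-mo libraries were above the mondoa-mis libraries, with replicate 2 nearest to them and replicate 3 farthest. The mean was 12.0 ± 4.00 CPM in mondoa-mo and 7.41 ± 0.412 CPM in mondoa-mis (SD, n = 3 libraries each). edgeR gave a log2 fold change of 0.69 (SE 0.202) with an adjusted p of 0.025. It missed the threshold without mondoa-mis replicate 1 (0.72, adjusted p = 0.071), replicate 2 (0.71, adjusted p = 0.071) or replicate 3 (0.65, adjusted p = 0.092), and was 0.41 without mondoa-mo replicate 3 (adjusted p = 0.039).

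The homeobox gene noto, known from the floating head mutant, is needed for the notochord, and it changed most among the genes that rose. Its level was 25.8, 20.2 and 38.4 CPM in mondoa-mo, against 12.8, 11.8 and 13.0 CPM in mondoa-mis. The lowest mondoa-mo library was well above the highest mondoa-mis library. The mean was 28.1 ± 9.33 CPM in mondoa-mo and 12.5 ± 0.635 CPM in mondoa-mis (SD, n = 3 libraries each). At a log2 fold change of 1.16 (SE 0.195, adjusted p of 0.0014 in edgeR), noto ranked 160 from the top among the 15511 genes tested. It passed in all 13 alternatives, with values between 0.88 and 1.34.

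Of the endoderm genes, gata5 was called lower and sox32 was not called. The zinc finger gene gata5, known from the faust mutant, acts in endoderm and heart formation, and it had few reads at this stage. Its counts were 2, 3 and 16 read pairs in mondoa-mo and 33, 21 and 22 read pairs in mondoa-mis, corresponding to 0.0640, 0.138 and 0.668 CPM in mondoa-mo and 1.35, 0.893 and 1.05 CPM in mondoa-mis. All mondoa-mo libraries were below the mondoa-mis libraries, and replicates 1 and 2 were at or under 3 counts, the floor used here. edgeR gave a log2 fold change of -1.97 (SE 0.556) with an adjusted p of 0.021, 47th from the bottom among the genes tested. The gene had enough counts to be tested only through the mondoa-mis libraries, so this call and rank are conditional on high counts there. With all genes of at least 1 count kept, its log2 fold change was -1.97 (adjusted p = 0.0019 in edgeR). In that edgeR fit adjusted p also fell for noto (5.6e-07) and tbx16 (0.0017), though not for sox32 (0.90). The lower p of gata5 there is therefore not read as firmer support. The size of its fold change rested on single libraries. The log2 fold change was -3.47 (adjusted p = 0.00042) without mondoa-mo replicate 3 and -1.40 (adjusted p = 0.048) without replicate 1. The call was lost without mondoa-mo replicate 2 (-1.72, adjusted p = 0.065), mondoa-mis replicate 1 (-1.78, adjusted p = 0.090) or mondoa-mis replicate 3 (-2.00, adjusted p = 0.059).

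The SRY-related gene sox32 is required for endoderm. It had 39, 31 and 34 counts in mondoa-mo and 38, 22 and 30 counts in mondoa-mis. These are 1.25, 1.43 and 1.42 CPM in mondoa-mo and 1.55, 0.936 and 1.43 CPM in mondoa-mis, and the mondoa-mo libraries all lay within the range of the mondoa-mis libraries. edgeR gave a log2 fold change of 0.058 (SE 0.238) with an adjusted p of 0.88. The value was smaller than its SE and lay between -0.13 and 0.21 with 1 library left out.

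Between genes, levels were compared as CPM per kilobase of the deposited gene length. In mondoa-mo the mean was 169.6 CPM per kilobase for eomesa, 28.4 for noto, 14.5 for tbx16, 7.43 for ndr1, 5.41 for tbxta, 0.591 for sox32 and 0.126 for gata5. In mondoa-mis it was 153.7 CPM per kilobase for eomesa, 12.7 for noto, 9.33 for tbx16, 4.88 for ndr1, 3.36 for tbxta, 0.565 for sox32 and 0.476 for gata5. The order was therefore the same in both groups, with eomesa far above the other genes and the endoderm genes at the bottom. Neighbours in this order overlapped between libraries for noto and tbx16 and for ndr1 and tbxta in mondoa-mo, and for sox32 and gata5 in mondoa-mis.

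Replicate 3 was the highest mondoa-mo library for 5 of the 7 genes (tbxta, tbx16, ndr1, gata5 and noto), beside 33.7% of all tested genes. The order of replicate 3 over 1 over 2 held for 4 of the 7 genes (tbxta, tbx16, noto and ndr1), beside 15.6% of all tested genes. This order was taken from the values of these genes, so the share describes them and does not test them. For ndr1 the range was narrow and within counting error. Ratios of genes within a library were chosen after the values were seen and are given without a test. The ratio of noto to tbxta in CPM was 2.3, 2.41 and 2.36 in mondoa-mo, against 1.66, 1.55 and 1.88 in mondoa-mis. Although noto varied 1.90-fold and tbxta 1.94-fold between the lowest and the highest mondoa-mo library, their ratio stayed nearly constant there and lay above that in every mondoa-mis library. At 350, 182 and 390 counts of tbxta, counting error alone would spread the ratio more, so its constancy is not read further. Its higher level restates the larger log2 fold change of noto (1.16) than of tbxta (0.69). For tbx16 to tbxta the ratio was 5.69, 5.63 and 6.35 in mondoa-mo, against 5.83, 6.25 and 6.62 in mondoa-mis, and the groups overlapped.

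**Figure D2:**
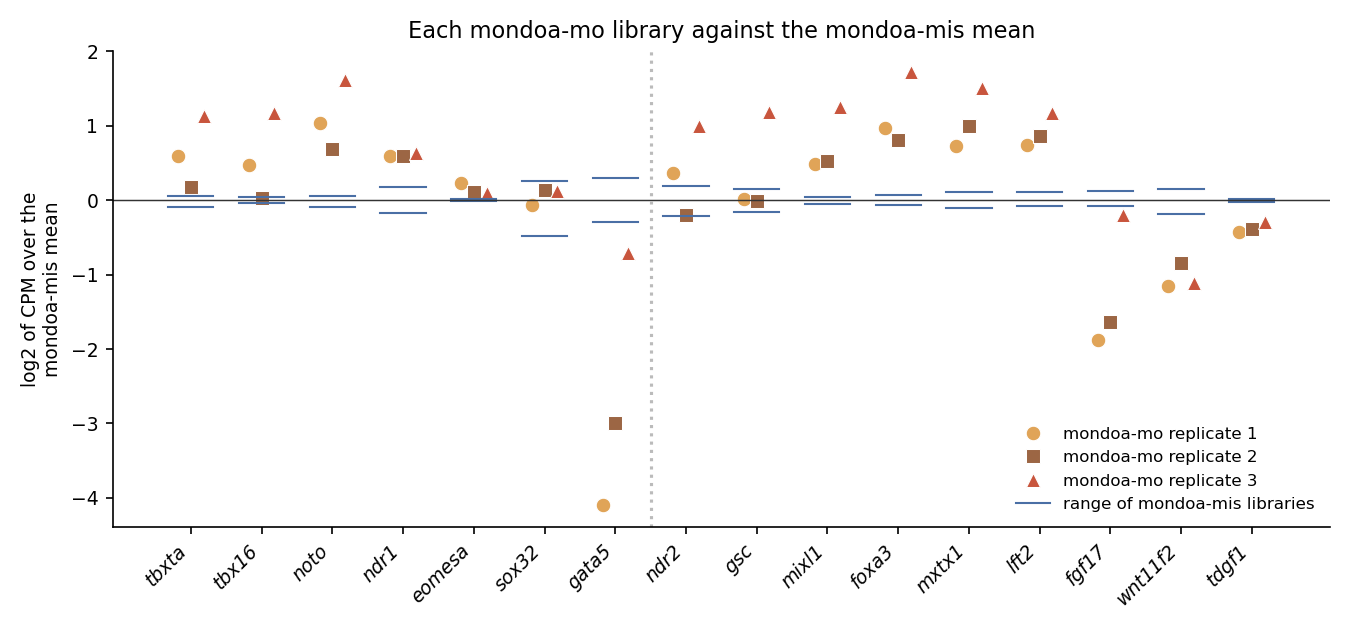
Log2 of the CPM of each mondoa-mo library over the mean CPM of the 3 mondoa-mis libraries, with the 7 mesendoderm genes left of the dotted line and 9 related genes right of it. The 9 genes are a selection and do not represent the pathway lists, where replicate 3 was the highest mondoa-mo library for 22 of 38 tested genes. Blue lines bound the range of the mondoa-mis libraries. Replicate 3 (triangle) is the highest for tbxta, tbx16 and noto, at 1.13, 1.17 and 1.61, whereas the ndr1 values lie together between 0.59 and 0.64.

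To see how the surrounding pathway behaved, 55 related genes were grouped in 6 lists by role, of which 47 could be matched to an identifier and 38 were tested. Of these 38 genes, 12 were higher, beside 16.9% of all tested genes, 6 were lower, beside 15.4%, and 20 did not pass the threshold, with a median log2 fold change of 0.16. For 19 of them the mondoa-mo libraries all lay above or all lay below the mondoa-mis libraries, a share near the 47.8% of all tested genes without overlap, and the count of lower genes is near its background as well. Replicate 3 was the highest mondoa-mo library for 22 of the 38 genes (57.9%), beside 33.7% of all tested genes. The counts of each list below likewise stand beside 16.9% of all tested genes called higher and 15.4% called lower. The lists are small, and these counts describe them without a test.

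Among the other Nodal ligands and the co-receptor, 1 of 3 genes was higher, 1 was lower, and the median log2 fold change was 0.20. The maternal ligand gene gdf3, whose product acts together with Nodal, was at 678, 660 and 602 CPM in mondoa-mo and 563, 566 and 563 CPM in mondoa-mis (log2 fold change 0.20, SE 0.049), and its call was narrowly lost without any 1 of the mondoa-mis libraries (adjusted p between 0.056 and 0.057). The second Nodal gene, ndr2 (cyclops), was at 2.72, 1.84 and 4.21 CPM in mondoa-mo and 2.41, 1.83 and 2.09 CPM in mondoa-mis. Its groups overlapped, and it did not pass at a log2 fold change of 0.47 (SE 0.274), with an adjusted p of 0.22 in edgeR, though it did (0.69) without mondoa-mo replicate 2. The co-receptor gene tdgf1 (one-eyed pinhead) went the other way, with 87.3, 89.0 and 95.5 CPM in mondoa-mo against 118, 118 and 115 CPM in mondoa-mis (log2 fold change -0.37, SE 0.051). For tdgf1 no alternative analysis changed the call.

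Of the Nodal antagonists, which Nodal signaling itself induces, lft2 rose and lft1 did not pass the threshold. The level of lft2 was 14.7, 15.9 and 19.8 CPM in mondoa-mo, against 9.44, 8.34 and 8.56 CPM in mondoa-mis, without overlap (log2 fold change 0.93, SE 0.124). That of lft1 was 6.05, 3.82 and 6.17 CPM in mondoa-mo and 5.07, 4.77 and 4.56 CPM in mondoa-mis (log2 fold change 0.17, SE 0.178). In the group of receptors and intracellular mediators, 2 of 8 tested genes were higher and 2 were lower, beside 16.9% and 15.4% of all tested genes. The median log2 fold change was -0.0049. The signal transducer gene smad3a was at 10.1, 12.3 and 12.8 CPM in mondoa-mo and 5.85, 7.57 and 6.65 CPM in mondoa-mis (log2 fold change 0.80), and the type II receptor gene acvr2bb rose with a log2 fold change of 0.37. The type I receptor gene acvr1ba fell with a log2 fold change of -0.27. For foxh1, the gene of the Smad partner in Nodal target transcription, the log2 fold change was -0.14 with an adjusted p of 0.045 in edgeR, and the call was lost in 6 of 13 alternatives, among them without any 1 of the mondoa-mis libraries or mondoa-mo replicate 3.

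Transcription factors of endoderm and mesendoderm showed both directions: of 11 tested genes, 4 were higher, 1 was lower and 6 did not pass, with a median log2 fold change of 0.21. The Nodal target mixl1, a homeobox gene that acts upstream of sox32, was at 23.7, 24.4 and 40.2 CPM in mondoa-mo, against 17.0, 17.4 and 16.2 CPM in mondoa-mis (log2 fold change 0.80, SE 0.180). The forkhead gene foxa3 was at 25.3, 22.8 and 42.6 CPM in mondoa-mo, against 12.9, 12.4 and 13.6 CPM in mondoa-mis (log2 fold change 1.22, SE 0.204). For both, the 3 mondoa-mo libraries were above all mondoa-mis libraries and replicate 3 stood highest, as for noto and tbxta.

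The yolk syncytial layer homeobox gene mxtx1 rose as well, with 10.4, 12.4 and 17.7 CPM in mondoa-mo against 6.75, 6.17 and 5.80 CPM in mondoa-mis (log2 fold change 1.10). The head gene otx2b had few reads, with 25, 13 and 13 counts in mondoa-mo and 3, 1 and 5 counts in mondoa-mis, near the floor. Its log2 fold change was 2.29 (SE 0.470), between 1.86 without mondoa-mis replicate 2 and 2.91 without mondoa-mis replicate 3. The gene had enough counts to be tested only through the mondoa-mo libraries, so its call is conditional on high counts there. With all genes of at least 1 count kept, its log2 fold change was also 2.29 (adjusted p = 0.00092 in edgeR). As for gata5, this p is not read as firmer support. The organizer gene lhx1a was lower, with a log2 fold change of -0.30 (adjusted p = 0.027 in edgeR), and lost its call without any 1 of the mondoa-mis libraries. Goosecoid (gsc), a marker of the organizer, was at 5.06, 4.97 and 11.3 CPM in mondoa-mo and 4.99, 5.57 and 4.47 CPM in mondoa-mis, and its log2 fold change of 0.50 (0.00039 without replicate 3) did not pass. The gene sox17, a direct target of Sox32 in endoderm, was at 0.704, 1.20 and 0.834 CPM in mondoa-mo and 0.859, 0.681 and 0.998 CPM in mondoa-mis (log2 fold change 0.087, SE 0.287). Among the genes with too few counts to be tested was gata6, the relative of gata5.

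Of the mesoderm transcription factors, 4 of 7 matched genes were tested and 1 passed, with a median log2 fold change of -0.23. This was osr1, a zinc finger gene that acts on the balance of kidney and endoderm, with a log2 fold change of 0.70 (adjusted p = 0.038 in edgeR), which missed the threshold in 5 of 13 alternatives, among them without mondoa-mo replicate 2 or 3 or mondoa-mis replicate 1 or 3.

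Among the FGF and Wnt ligands of the margin and the FGF feedback genes, 3 of 10 tested genes were higher, 2 were lower and the median log2 fold change was 0.26. The higher ones were dusp6, a phosphatase gene that FGF signaling induces (log2 fold change 0.63), il17rd, also called sef, an FGF antagonist (0.46), and the ETS factor gene etv5b (0.16), whose call was lost without any 1 of the mondoa-mis libraries. The lower ones were ligands, but the other ligands tested did not pass the threshold. Of the Wnt genes in the list only wnt11f2 was tested. The gene wnt11f2 (silberblick), which acts in convergent extension, was at 10.6, 13.2 and 10.97 CPM in mondoa-mo against 23.8, 26.3 and 20.8 CPM in mondoa-mis (log2 fold change -1.03, SE 0.114). It kept its call in all 13 alternatives. The gene fgf17 was at 1.12, 1.34 and 3.59 CPM in mondoa-mo and 4.50, 3.91 and 3.99 CPM in mondoa-mis, again with mondoa-mo replicate 3 nearest to mondoa-mis, as for gata5. Its log2 fold change was -1.06 (adjusted p = 0.041 in edgeR), and the call was lost in 5 of 13 alternatives, without any 1 of the mondoa-mis libraries or mondoa-mo replicate 1 or 2. Without mondoa-mo replicate 3 it was -1.77 (adjusted p = 9.8e-05).

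**Figure D3:**
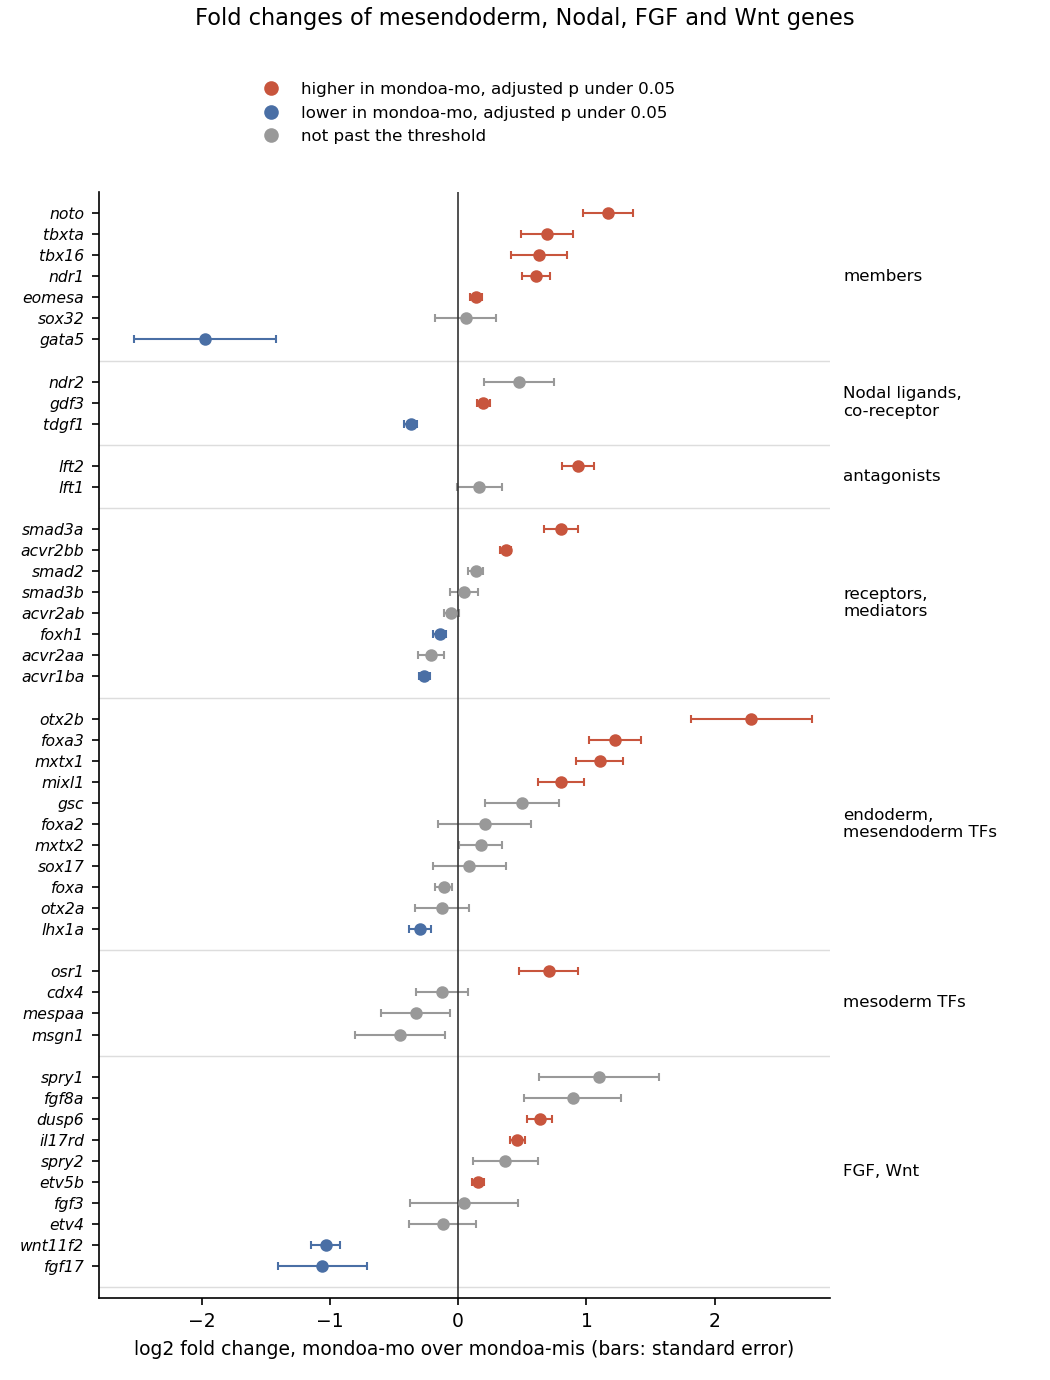
Log2 fold change, mondoa-mo over mondoa-mis, of the 7 mesendoderm genes (top) and the 38 tested genes of the 6 lists by role, with the standard error as a bar. Red marks genes higher and blue genes lower in mondoa-mo at an adjusted p under 0.05, and grey the others. The mesendoderm genes lie between -1.97 for gata5 and 1.16 for noto, and the listed genes between -1.06 for fgf17 and 2.29 for otx2b. Of these, gata5 had enough counts to be tested only through mondoa-mis, and otx2b only through mondoa-mo.

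Markers of other cells and stages changed in the same libraries, and their part in the results above was not tested. The counts below stand beside 16.9% of all tested genes called higher and 15.4% called lower. Some genes, among them mxtx1, otx2b and cldne, are counted in more than 1 list. Early zygotic genes, a list that includes tbx16, had 9 higher and 4 lower of 18 tested (median log2 fold change 0.41). The list was led by mych (1.18) and cldne (1.16) upward, and by her3 (-2.11, tested only through its mondoa-mis counts) and vent (-1.74) downward. Their summed level was between 870 and 1098 CPM in mondoa-mo and between 679 and 700 CPM in mondoa-mis. Neurectoderm genes had 4 higher and 0 lower of 6 tested (median 1.001), among them otx2b (2.29, at few counts and tested only through mondoa-mo) and zic2b (1.34). The list summed to between 390 and 478 CPM in mondoa-mo and between 203 and 213 CPM in mondoa-mis. Enveloping layer markers had 1 higher and 2 lower of 8 tested (median 0.026), with cldne (1.16) higher and grhl3 (-1.87) and klf17 (-0.20) lower. The other 5 did not pass. The list summed to between 228 and 286 CPM in mondoa-mo and between 337 and 348 CPM in mondoa-mis. Most of that difference lay in grhl3, at 34.4, 28.5 and 32.6 CPM in mondoa-mo and 115, 116 and 120 CPM in mondoa-mis.

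Genes listed as yolk syncytial layer markers had 1 higher, mxtx1, and 0 lower of 4 tested (median 0.075). The other tested ones were mxtx2, hnf4b and ttn.1 (-0.23). Whether ttn.1, the gene of the muscle protein titin, marks this layer was not checked. The list summed to between 20.03 and 34.3 CPM in mondoa-mo and between 16.7 and 18.6 CPM in mondoa-mis. Most of that difference lay in mxtx1, at 10.4, 12.4 and 17.7 CPM in mondoa-mo and 6.75, 6.17 and 5.80 CPM in mondoa-mis. Maternal mRNAs had 6 higher and 1 lower of 14 tested (median 0.25), with bmp15 (0.75) and dazl (0.48) higher and buc (-0.81) lower, and summed to between 3820 and 4414 CPM in mondoa-mo and between 4149 and 4208 CPM in mondoa-mis. Of 7 tested housekeeping genes, 3 were higher and 1 was lower (median 0.17), with gapdh (0.98) and actb1 (0.91) higher and actb2 (-0.23) lower. Among the enveloping layer genes cyt1l was at 0 counts in all 6 libraries and cyt1 had at most 1 count, whereas krt4 had 181, 84 and 315 counts in mondoa-mo and 278, 281 and 252 counts in mondoa-mis.

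The tested genes whose log2 CPM over the 6 libraries was most like that of a mesendoderm gene are given as a description, since 6 libraries in 2 groups leave many genes alike. For noto these were net1 (Pearson's r = 0.999) and srsf2a (0.997), and 27 tested genes had an r over 0.99. The pairs were tnikb (0.996) and wdr61 (0.995) for tbxta, kat5b (0.999) and RBX1 (0.995) for tbx16, and MAP7D1 (0.999) and pabpc1b (0.998) for eomesa. For ndr1 the nearest gene with a symbol was HDAC10 (0.996). For gata5 they were DNAJC11 (0.998) and gnl3 (0.995), and for sox32 they were EEIG2 (0.987) and sirt2 (0.975).

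**Figure D4:**
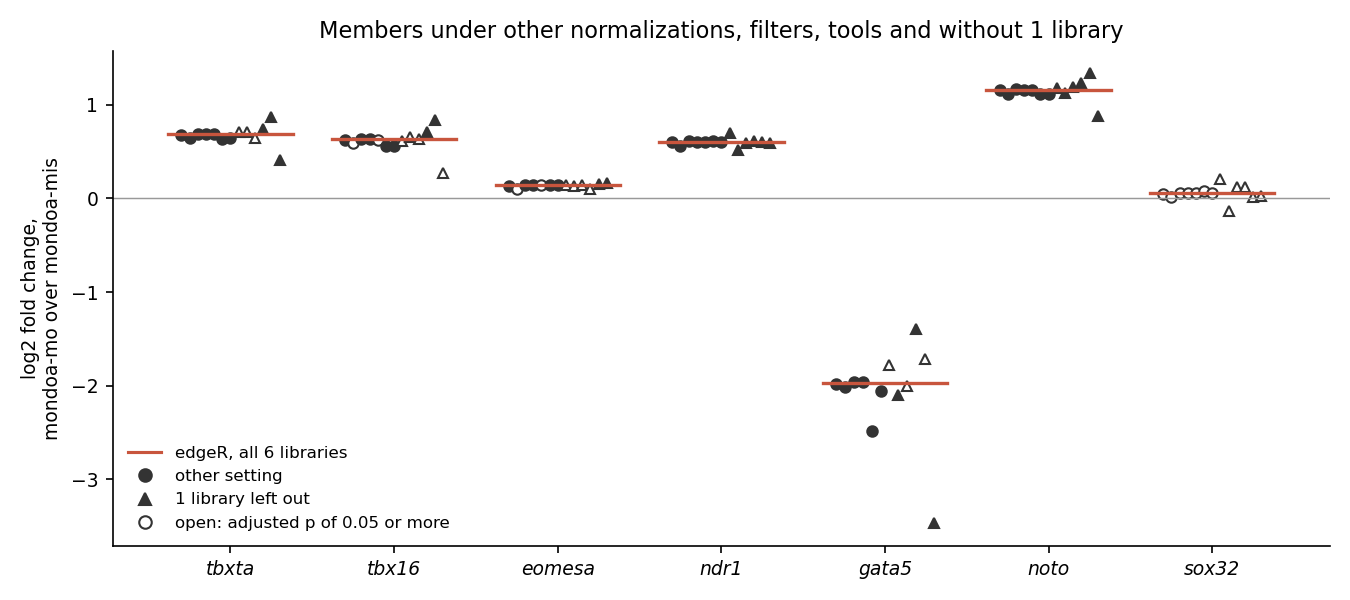
Log2 fold change, mondoa-mo over mondoa-mis, of each mesendoderm gene with edgeR on all 6 libraries (red line), under other settings (circles) and with 1 library left out (triangles). Open symbols have an adjusted p of 0.05 or more. All symbols of ndr1 and noto are filled, all of sox32 are open, and those of tbxta, tbx16, eomesa and gata5 are mixed while keeping their sign.

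In the RefSeq annotation of the newer assembly GRCz12tu, tbx16 and eomesa each overlap a long non-coding RNA gene and sox32 overlaps a protein-coding gene. These overlaps are of whole gene spans from start to end, and whether exons overlap was not checked. Whether the counting used strand is not given in the sources used here, so reads of such partners may be included in the counts of these 3 genes.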

How the data were processed

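RNA was extracted with TRIzol from pooled embryos at 4 hpf, and TruSeq mRNA libraries were sequenced with 50 nucleotides from each end. The authors used STAR 2.3.8 for alignment to GRCz11 and SAMtools to select unique alignments, and deposited raw counts of read pairs for the genes of Ensembl 96, with a gene length in bases.

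The 3 mondoa-mo and 3 mondoa-mis libraries, grouped by their labels, were compared in R 4.3.3 with edgeR 4.0.16 (filterByExpr, TMM, quasi-likelihood test without covariates, Benjamini-Hochberg adjustment over all genes tested, threshold 0.05). The standard error is the size of the log2 fold change divided by the square root of F. The code was tested on simulated data with the same dispersion for all genes and both groups. The groups here differed in spread, so that test does not show error rates for these libraries. Alternatives were DESeq2's size factors, library size alone, all genes with at least 1 count, at least 10 counts in every library, DESeq2 1.42.0, voom with group weights (limma 3.58.1), a replicate block and leaving out each library. Adjusted p-values from edgeR cover counting error and the spread between libraries.

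The genes and lists were chosen with earlier results of these data known. Beside the 7 genes, the text names up to 3 called genes per direction of each pathway list with ndr2, gdf3, tdgf1, lft1, lft2, mixl1, gata6, sox17 and gsc, up to 2 per direction of each marker list, and up to 2 genes most like each gene. Symbols came from supplementary rows (3762 genes of the table) or a reference table (28986 genes). Not matched to 1 identifier were acvr1bb, acvr2ba, smad4a, tbxtb, tbx6l, eomesb, fgf8b, wnt8a, fn1a, sox1a and elfa. No genome sequence was used here, so planned comparisons of promoters and T-box proteins were not run.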

Additional observations from a re-analysis of the deposited data

How the results depend on the processing

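Of the 7 mesendoderm genes, ndr1 and noto stayed called and sox32 stayed uncalled in all 13 alternatives, and the other called genes kept their direction in every alternative that gave a value. With library size alone, log2 fold changes of 0.59 for tbx16 and 0.099 for eomesa were no longer past the threshold, and the same held with DESeq2's Wald test (0.63 for tbx16 and 0.14 for eomesa). Scaling moved the median of all genes by under 0.1 on the log2 scale.

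Leaving out 1 library at a time, the number of changed genes was between 3119 and 5832 (5017 with all 6 libraries), with 1632 to 3039 higher and 1487 to 2793 lower. These fits tested between 15784 and 15853 genes, and the fit with all 6 libraries tested 15511. The number of mesendoderm genes called was between 2 and 5, lowest without mondoa-mis replicate 1 or 3, and that of pathway genes called was between 12 and 19. Over these fits the log2 fold change was between 0.41 and 0.87 for tbxta, 0.28 and 0.84 for tbx16, 0.098 and 0.17 for eomesa, and -3.47 and -1.40 for gata5. The cause of the lower counts was not tested.

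Replicate numbers came from the labels. Same-numbered libraries deviated together only weakly (correlations 0.073, 0.039 and 0.043), so they were treated as sharing a number only, although 6 of 6 libraries correlated best with the library of their own number in the other group, a hint from the data and not from the design. With the replicate block, 5281 genes were called, 6 of them mesendoderm genes.

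Ranked by CPM without length, tbx16 was above noto in both groups and tbxta above ndr1 in mondoa-mo. With at least 10 counts in every library, gata5 was not tested. Promoter motifs and protein identities were not run. The counts of gata5 and sox32 were at most 39 in any library, which limits their precision.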
